A study of Mus musculus with 24 samples.

Results

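The genes described here are 10 transcription factors listed together under the heading of T cell quiescence and the naive state. The list holds the zinc finger factors Klf2, Klf3, Klf7 and Klf13, the forkhead factors Foxo1 and Foxp1, and the basic leucine zipper repressor Bach2. It also holds the HMG box factors Tcf7 and Lef1 and the chromatin organizer Satb1. The genes of this list are 10 of 55414 genes in the count table, and 9 of them were among the 10566 genes with enough counts to be tested. They were chosen by name, with the activation values of these libraries known, so their change on activation is given as a description. No p-value is printed for it. The counts of genes past the threshold of the genome-wide fit, and their shifts under other settings, are given with nothing read from them. RNA was measured by MARS-seq adapted to bulk samples, a method that counts the 3′ ends of polyadenylated transcripts with unique molecular identifiers (UMIs), in splenic Tconv CD4+ cells, the CD4+ CD25- fraction left after magnetic depletion of other cells and of CD25+ cells. The study asked how the mitochondrial DNA (mtDNA) haplotype alters the response of these cells. The mice were conplastic: all carried the nuclear genome of C57BL/6J, with the mtDNA of either B6 (labelled WT) or NZB. By the study's methods most experiments used young adult males, and the sex and age behind these libraries are not stated there. From each haplotype 6 libraries came from resting cells and 6 from cells activated for several days with beads that engage CD3 and CD28, with IL-2 by the study's methods, which made 4 groups and 24 libraries. The labels do not say whether libraries of 1 group came from separate mice, so the p-values measure the spread between these libraries.

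Naive T cells stay small and out of cycle under an active program of transcription. FOXO1 and KLF2 hold that program in place: they drive the receptors for lymph node entry, tissue egress and interleukin-7, and antigen receptor signalling through PI3K and AKT pushes FOXO1 out of the nucleus, after which Klf2 falls. FOXP1 and BACH2 restrain differentiation, TCF1 (the product of Tcf7) and LEF1 bind the same HMG motif and keep the capacity for self-renewal, and SATB1 folds the chromatin of T cell genes.

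The KLF proteins bind CACCC boxes, and several members of the family are known to act on each other's promoters. For the 4 KLF genes the bases around the nearest CACCC box upstream of the start site are therefore shown. Boxes in the 50 bases after the start were not considered for these lines. Each line gives 30 bases 5′ to 3′ on the strand of the gene, with the box or its reverse complement GGGTG in capitals. The sequences were taken from RefSeq promoters (250 bases before to 50 after each start, on GRCm38.p6) and placed on GRCm39 by an exact match.
Klf2: cctataaggcctGGGTGggccgggccacag
Klf3: ccctgaccctccCACCCcggctcccagcct
Klf7: agggaagggaagGGGTGgggggggagagaa
Klf13: cccggccccgccCACCCccggggccggtcc
They lie at chr8:73072875-73072904 on the plus strand, chr5:64960804-64960833 on the plus strand, chr1:64160642-64160671 on the minus strand and chr7:63588668-63588697 on the minus strand of GRCm39. The first 3 overlap an exon of a transcript of the same gene that starts elsewhere, and the window of Klf13 lies outside the gene. The boxes lie 15, 44, 107 and 18 bases before the RefSeq start of Klf2, Klf3, Klf7 and Klf13. A box on either strand was found in at least 1 promoter of 8 of the 10 genes. Counted per promoter it was found in 57.5% of all 32851 promoters, and 16 of the 20 promoters of these genes held one; the difference was not tested. A forkhead motif (GTAAACA, either strand) was found in a promoter of Tcf7 alone among the 10 genes and in 3.65% of all promoters, and a TCF/LEF motif (CTTTGA, either strand) in promoters of Foxp1, Bach2 and Lef1 and in 16% of all promoters. The motif TGAGTCA, read by BACH2 and by AP-1, was found in none of the 20 promoters of these genes and in 5.2% of all promoters. These are matches of letters in short windows and not sites of binding.

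Libraries held between 51409 and 6449395 UMI counts, and 1 of them, resting NZB library 2, was far smaller than the rest: a single count there is worth 16.9 CPM. CPM are counts brought to a common library size, here with TMM factors, which correct for the makeup of each library. The T cell markers (8 genes, among them Cd3e, Cd4 and Lck) summed to between 3859 CPM in resting NZB library 6 and 7313 CPM in the highest library, also resting NZB. Markers of other cells were present at rest: the 8 genes of granulocytes and their precursors summed to 644 to 7434 CPM in resting B6 and to 406 to 20322 CPM in resting NZB libraries (highest in library 6), against 8.26 to 78.8 and 7.43 to 178 CPM after activation. The 6 myeloid markers summed to 1089 to 3364 and 627 to 3560 CPM at rest, against 40.1 to 116 and 18.3 to 129 CPM after activation. All 14 of these genes passed the test as lower after activation in both haplotypes, and of the 6 erythroid markers 5 did. Other lists did not all move this way. The 2 CD8 T cell markers were both higher after activation in both haplotypes, from a mean of 71.6 to 282 CPM in B6 and from 69.3 to 231 CPM in NZB, as was the platelet gene Pf4. None of the 5 B cell markers passed, with sums of 458 to 809 CPM in activated B6 and 83.5 to 1059 CPM in activated NZB libraries. Of 2 NK genes tested, 1 was higher and 1 lower in B6, and 0 were higher and 1 lower in NZB. Of 2 Treg genes, 1 was lower in B6 and 1 higher in NZB. Of the granulocyte list, Ltf and S100a8 were at 0 in 3 activated B6 libraries each. In bulk RNA, fewer cells of a type and less RNA per cell cannot be told apart, and the part of the other cells in each activation difference below was not tested.

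**Figure D1:**
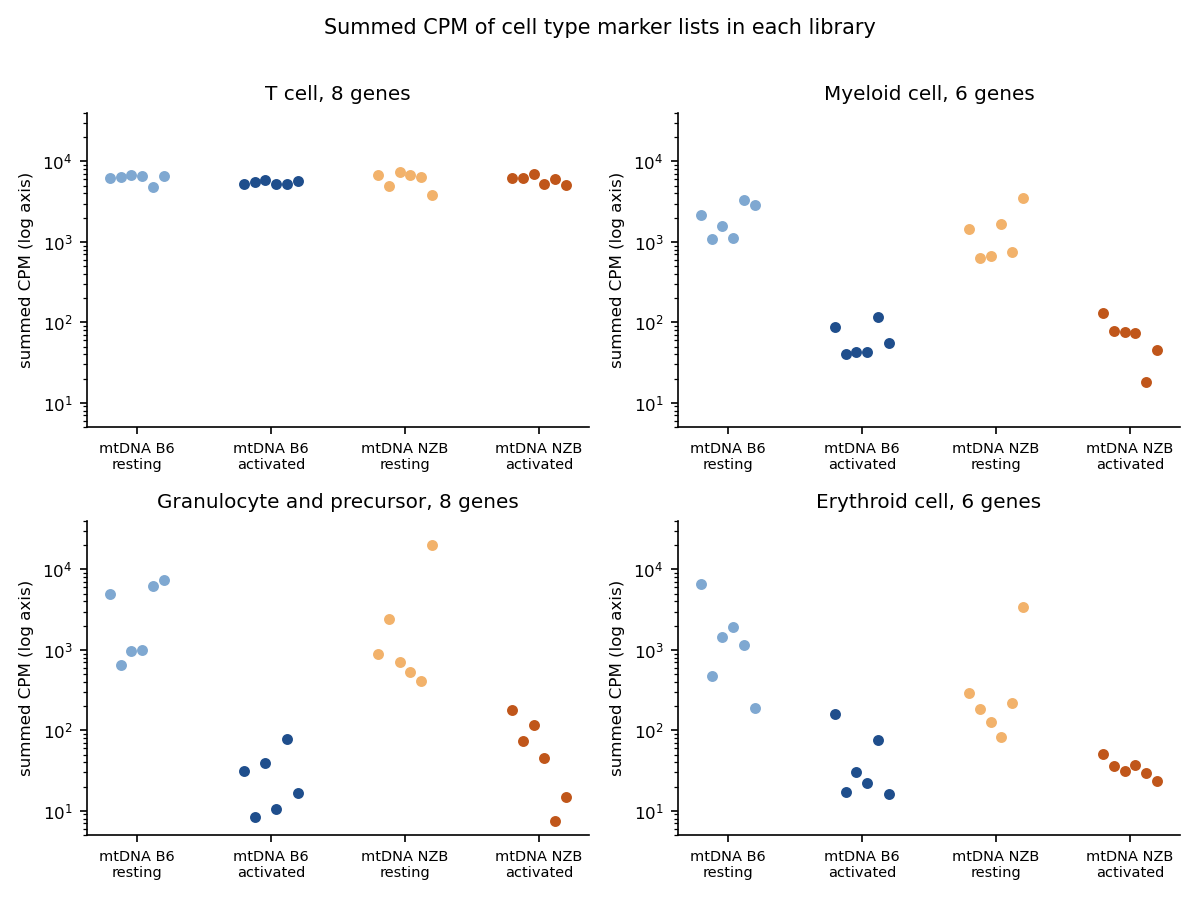
Summed CPM (log axis) of 4 cell type marker lists in each of the 24 libraries, 1 point per library in the 4 groups. The T cell list stays between 3859 and 7313 CPM, while the myeloid and granulocyte lists drop after activation in both haplotypes and the granulocyte list reaches 20322 CPM in resting NZB library 6.

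The first question was what activation did to these genes in each haplotype. Klf2, which drives the egress receptor gene S1pr1, showed the largest fall of the 9 tested genes in both haplotypes. Klf2 ranged from 2041 to 3052 CPM (median 2424) in resting B6 libraries and from 275 to 435 CPM (median 379) after activation. In NZB libraries it ranged from 798 to 3731 CPM (median 2730) at rest and from 394 to 499 CPM (median 422) after activation. Resting and activated libraries did not overlap in either haplotype, although the resting NZB libraries fell into a high and a low part: libraries 1, 3 and 4 held 3731, 3563 and 3605 CPM and libraries 2, 5 and 6 held 1897, 1426 and 798 CPM. The fitted difference on the log2 scale was -2.72 ± 0.26 (SE) in B6 and -2.54 ± 0.26 in NZB, a 6.60-fold and a 5.81-fold fall. Resting NZB library 6, the lowest of its group, is also the library with the lowest T cell and the highest granulocyte marker sums. Library 5 held the lowest granulocyte sum of the group (406 CPM) and a T cell sum of 6413 CPM. Library 2 held a granulocyte sum of 2422 CPM and a T cell sum of 4997 CPM. The part of other cells in this split was not tested.

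Klf3, a repressor of the same family that is itself a target of KLF1 in erythroid cells, moved the same way. It held 122.7 to 155 CPM (median 134) in resting and 44.6 to 59.8 CPM (median 49.3) in activated B6 libraries. The NZB libraries held 102 to 362 CPM (median 159) at rest and 31.0 to 58.3 CPM (median 44.4) after activation. The groups did not overlap in either haplotype, and the log2 differences were -1.46 ± 0.19 in B6 and -2.14 ± 0.19 in NZB. The 362 CPM belonged to resting NZB library 5, well above the next library at 209 CPM, and without it the NZB difference was -1.85.

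Klf7 and Klf13 changed less. Klf7 held 40.6 to 60.4 CPM (median 51.4) at rest and 27.1 to 63.8 CPM (median 40.4) after activation in B6 libraries, which overlapped. NZB libraries held 56.5 to 88.4 CPM (median 72.5) at rest and 16.7 to 46.8 CPM (median 25.3) after activation, which did not overlap. The log2 differences of Klf7 were -0.31 ± 0.20 in B6 and -1.34 ± 0.22 in NZB. Klf13, a factor of late T cell activation that drives the chemokine gene Ccl5, held 500.4 to 626 CPM in resting and 398 to 586 CPM in activated B6 libraries. It held 550.1 to 1118 CPM at rest and 384 to 492 CPM after activation in NZB libraries, without overlap, and its log2 differences were -0.26 ± 0.13 in B6 and -0.73 ± 0.13 in NZB. The highest Klf13 value came from the smallest library, resting NZB library 2, where it rests on 66 counts.

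Of the forkhead factors Foxo1 could not be followed. All 24 libraries together held 37 UMI counts of Foxo1, 0 to 5 per library and 0 in 5 libraries, and no comparison was made. The gene (GRCm39 chr3:52175757-52260642, plus strand) has 3 distinct annotated transcript ends and counting was limited to annotated 3′ ends, so these counts are not a measure of the level of the whole transcript. Foxp1, which keeps naive cells quiescent and limits their response to interleukin-7, held 257 to 404 CPM (median 307) in resting and 175 to 274 CPM (median 204) in activated B6 libraries, which overlapped. In NZB libraries it held 324 to 457 CPM (median 421) at rest and 184 to 274 CPM (median 209.7) after activation, which did not. The log2 differences were -0.60 ± 0.13 in B6 and -0.86 ± 0.13 in NZB. The annotated ends of Foxp1 overlap another gene model on the same strand (Gm20696), and how reads there were assigned was not tested.

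Bach2, a repressor of effector genes that competes with AP-1, was the only one of the 9 with a positive difference, and in B6 alone. It held 45.8 to 68.5 CPM (median 48.6) in resting and 56.7 to 88.4 CPM (median 73.9) in activated B6 libraries, all 6 activated libraries above the resting median. Its NZB values were 50.8 to 115 CPM (median 72.6) at rest and 47.4 to 73.6 CPM (median 60.1) after activation, which overlapped. The log2 differences were 0.44 ± 0.16 in B6 and -0.34 ± 0.17 in NZB. The lowest resting NZB value came from library 2 and rests on 3 counts, and the highest came from library 5.

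Tcf7 and Lef1 both fell, Lef1 by more. Tcf7 held 935 to 1210 CPM (median 1160) in resting and 705 to 955 CPM (median 844) in activated B6 libraries. In NZB libraries it held 742 to 1368 CPM (median 1221) at rest, with libraries 2 and 6 low, and 620 to 1092 CPM (median 738) after activation. The log2 differences of Tcf7 were -0.42 ± 0.16 in B6 and -0.50 ± 0.16 in NZB, and resting and activated libraries overlapped in both haplotypes. Lef1 held 152 to 203 CPM (median 172) in resting and 67.6 to 103 CPM (median 76.8) in activated B6 libraries, without overlap. In NZB libraries Lef1 held 136 to 294 CPM (median 185) at rest and 73.0 to 151 CPM (median 105.6) after activation, where 1 activated library reached into the resting range. The log2 differences of Lef1 were -1.14 ± 0.16 in B6 and -0.91 ± 0.16 in NZB.

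Satb1 held 206 to 291 CPM (median 268) in resting and 214 to 286 CPM (median 258) in activated B6 libraries, so that the B6 groups covered nearly the same range. In NZB libraries it held 273 to 674 CPM (median 385) at rest and 177 to 290.2 CPM (median 190.4) after activation, where 4 of 6 activated libraries lay below all resting ones. The log2 differences were -0.05 ± 0.17 in B6 and -0.91 ± 0.18 in NZB.

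**Figure D2:**
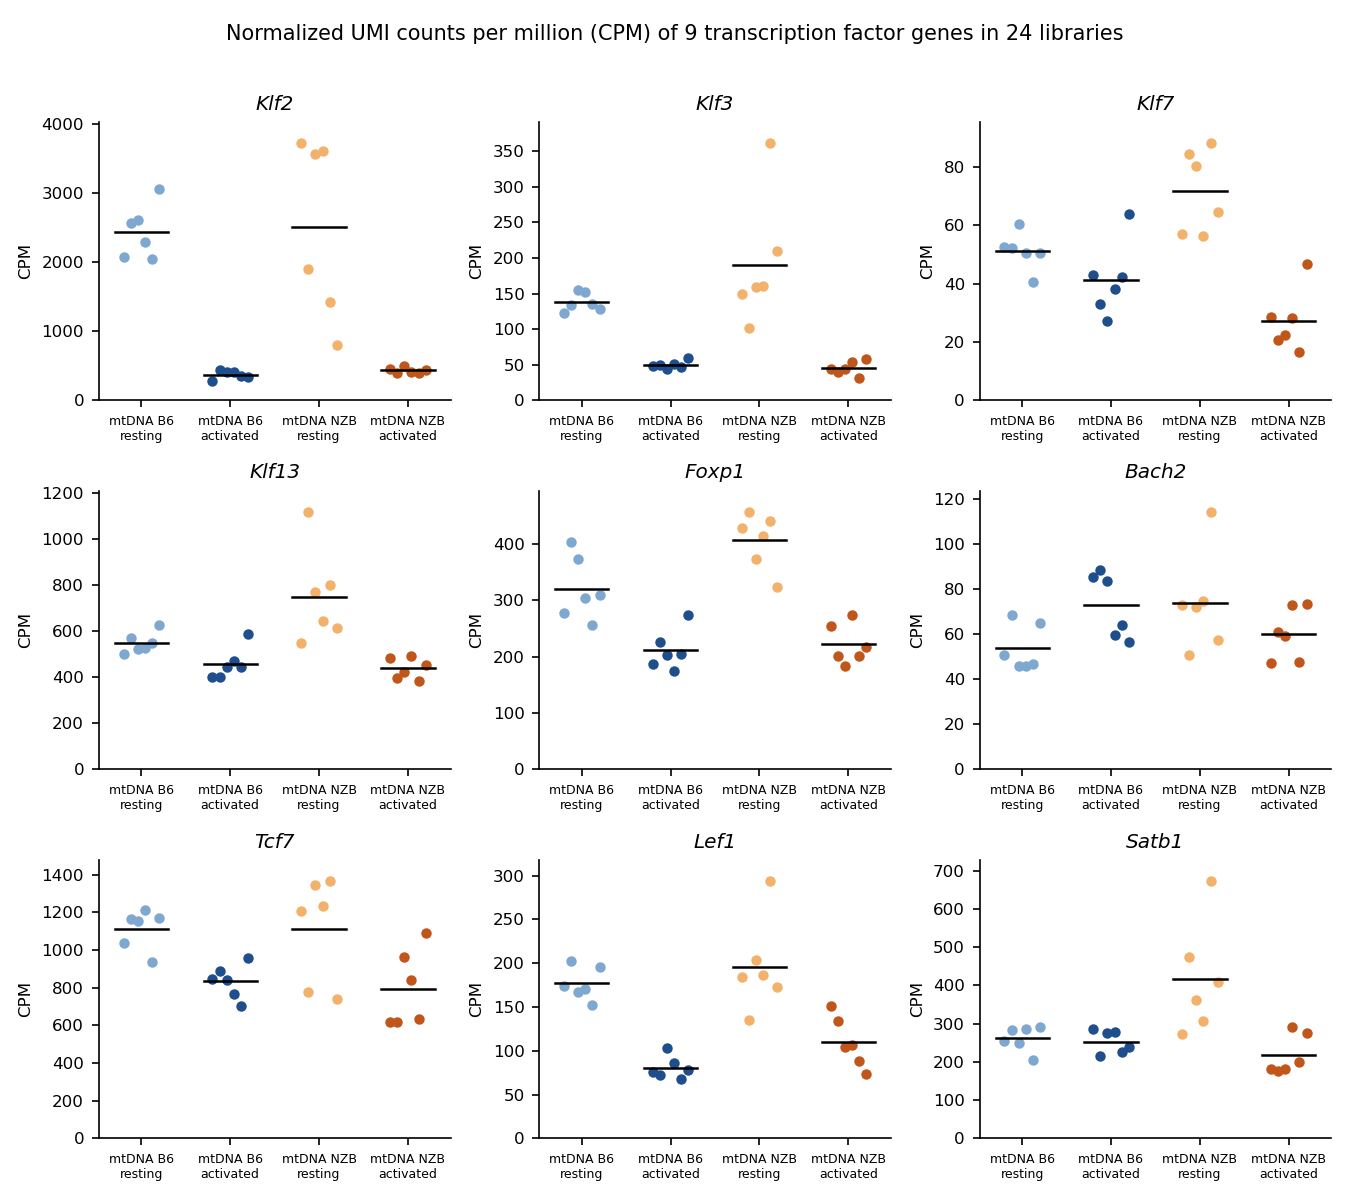
CPM of the 9 tested genes in each of 24 libraries (linear axes from 0, 1 point per library, bars at the group means of 6 libraries). Klf2 and Klf3 separate resting from activated libraries in both haplotypes, and in Klf3, Klf7, Bach2, Tcf7, Lef1 and Satb1 the highest resting NZB point is library 5.

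Counted over the 9 genes with edgeR's quasi-likelihood test, 5 were lower and 1 higher after activation in B6, where 24.5% of all tested genes were lower and 22.4% higher, and 8 were lower and 0 higher in NZB, where 28.4% were lower and 25.2% higher. The 1 higher gene was Bach2, and Klf7, Klf13 and Satb1 in B6 and Bach2 in NZB missed the threshold. The median log2 difference of the 9 genes was -0.42 in B6 and -0.91 in NZB, beside -0.03 and -0.06 over all genes. Since the genes were selected on this contrast, nothing is read from these counts. Of them, Tcf7 in B6 stayed past the threshold in 9 of 12 alternatives other than leaving out a single library, Tcf7 in NZB in 10 of 12 and Bach2 in B6 in 11 of 12. Scaled to the summed counts of the 8 T cell markers in place of TMM, an alternative added after seeing the data, the median over all genes in B6 moved to 0.15 and the share of higher among the called genes moved from 47.8% to 63.7%; Tcf7 in B6 was then at -0.23 and no longer past the threshold. The same scaling moved the median of all genes in the difference of responses, described further on, from 0.02 to -0.14.

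**Figure D3:**
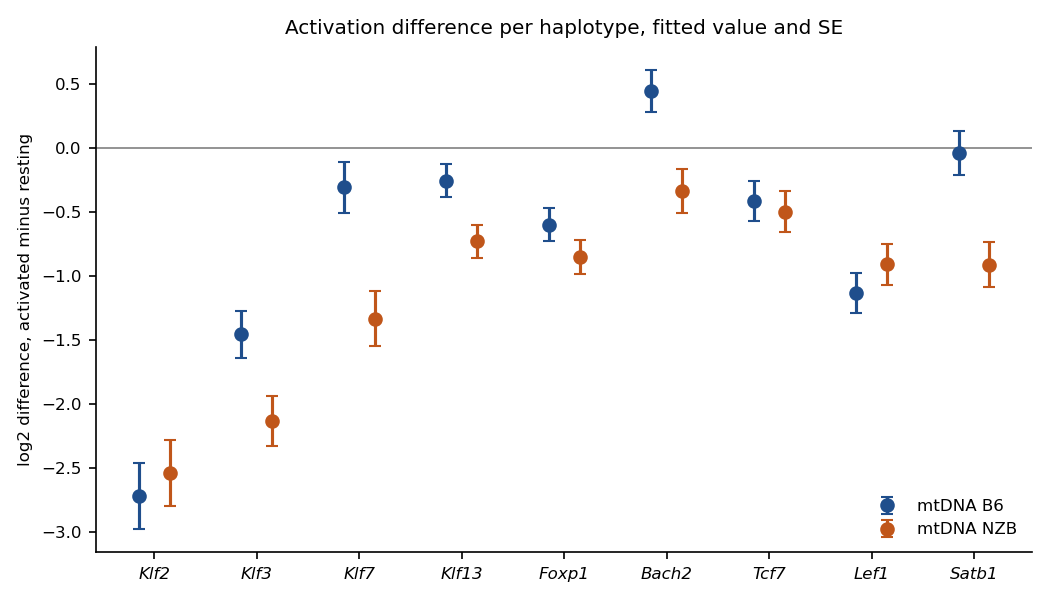
Fitted log2 difference of activated minus resting cells with its SE for 9 genes in mtDNA B6 and mtDNA NZB, from 6 libraries per group. Klf2 lies lowest in both haplotypes (-2.72 and -2.54), and Bach2 in B6 (0.44) is the only point above 0.

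The second question was whether the genes differed between the haplotypes at rest. Satb1 was the 1 gene of the 9 past the threshold, higher in NZB, where 1.9% of all tested genes were higher. Its 6 resting NZB libraries held 273, 474, 362, 308, 674 and 409 CPM, of which 5 lay above the highest resting B6 library (291 CPM). The log2 difference was 0.65 ± 0.18, a 1.57-fold difference (edgeR quasi-likelihood, adjusted p = 0.0444). The call was not firm: DESeq2 gave an adjusted p of 0.0545, and over the 11 alternatives other than leaving out a single library it ranged from 0.0394 to 0.514. Without library 5 the difference was 0.43 (adjusted p = 0.252), and without libraries 2, 5 and 6, which stood low in Klf2, it was 0.25 (adjusted p = 0.514). Within the libraries with the most reads per UMI, 2 resting B6 libraries averaged 248 CPM and 4 resting NZB libraries averaged 466 CPM, while within the middle set 4 resting B6 libraries averaged 268 CPM beside 273 CPM in 1 NZB library. With these sets as a term in the fit the difference was 0.62 (adjusted p = 0.155). Scaled to the T cell markers the difference was 0.78 (adjusted p = 0.126), and 1 gene of all tested passed at rest, beside 292 with TMM factors.

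The other 8 genes did not pass at rest, all with a fitted difference above 0. Klf13 differed by 0.41 ± 0.13 (adjusted p = 0.0769), Bach2 by 0.53 ± 0.17 (adjusted p = 0.0770) and Klf3 by 0.54 ± 0.18 (adjusted p = 0.0911), each with 4 of 6 resting NZB libraries above the highest B6 library. Bach2 passed without resting NZB library 6 (0.61, adjusted p = 0.0379), but without library 5 it stood at 0.36 (adjusted p = 0.364). Without the same library Klf3 stood at 0.26 (adjusted p = 0.478) and Lef1 at 0.05. Foxp1 differed by 0.33 ± 0.13 and Klf7 by 0.45 ± 0.21. Klf2 (0.04 ± 0.24), Tcf7 (0.02 ± 0.16) and Lef1 (0.20 ± 0.16) differed by less than 1.5 times their SE. The median over the 9 genes was 0.41, beside -0.01 over all genes, and 6 of the 9 had an unadjusted p under 0.05, as had 2196 of the 10566 genes. The genes were chosen with the activation values known, and those values use the same resting libraries. The choice is therefore not independent of the resting levels, that of Satb1 included, and nothing is read from this median or these counts.

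**Figure D4:**
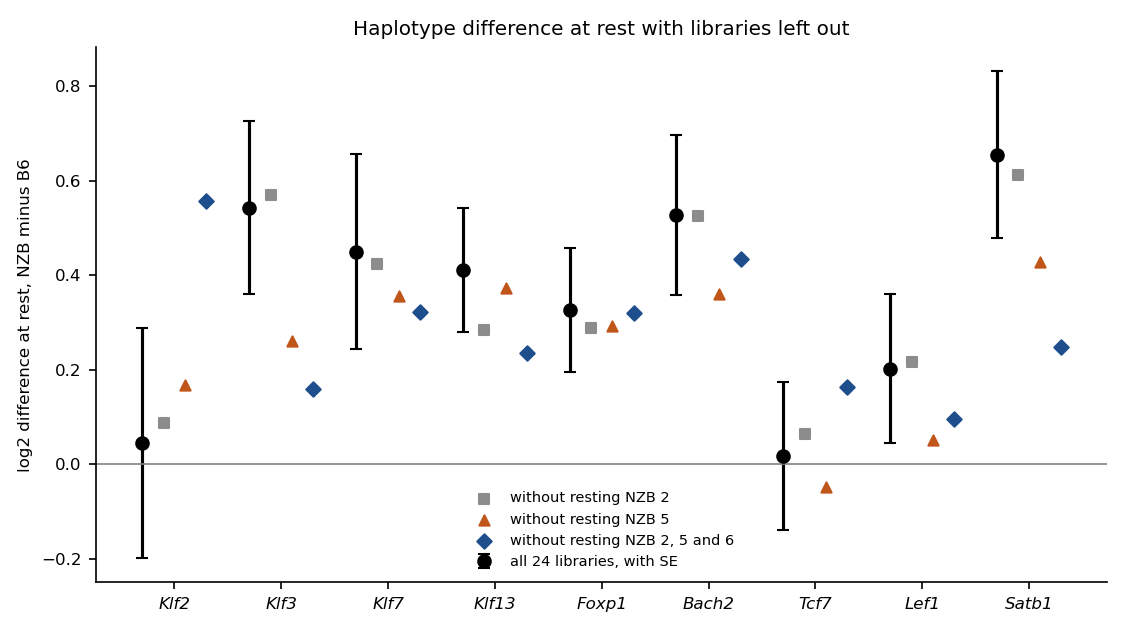
Log2 difference of resting mtDNA NZB minus resting mtDNA B6 for 9 genes with all 24 libraries (circles with SE) and as refitted without resting NZB library 2, without library 5, and without libraries 2, 5 and 6. Satb1 moves from 0.65 to 0.25 and Klf3 from 0.54 to 0.16 when the 3 libraries are left out, while Klf2 moves from 0.04 to 0.56.

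Klf2 went the other way when those 3 libraries were left out. With resting NZB libraries 1, 3 and 4 alone, all above the highest resting B6 library, the difference was 0.56 with an adjusted p of 0.0342. The 3 libraries were picked because Klf2 was low in them, so this value describes the split and is no evidence of a haplotype difference.

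After activation 0 of the 9 genes passed between the haplotypes, where 0% of all tested genes did with edgeR. At an unadjusted p under 0.05 there were 2 of the 9 and 327 of all genes, and DESeq2 also called 0. The 2 genes were Klf7, lower in NZB by 0.58 ± 0.21 on the log2 scale, and Lef1, higher by 0.43 ± 0.16, both with an adjusted p of 1. Activated NZB libraries overlapped activated B6 libraries in both genes. Satb1 stood at -0.21 ± 0.17 and Klf2 at 0.23 ± 0.24.

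The response itself was compared as the difference of the 2 activation differences, NZB minus B6. None of the 9 passed with edgeR, where 0% of all tested genes did. At an unadjusted p under 0.05 there were 5 of the 9 and 1512 of all genes, and DESeq2 called 0 of the 9 and 1 gene in all. The difference of responses was negative, with an unadjusted p under 0.05, for Klf7 (-1.03 ± 0.29), Satb1 (-0.87 ± 0.25) and Bach2 (-0.78 ± 0.24), each with an adjusted p of 0.207, and for Klf3 (-0.68 ± 0.26) and Klf13 (-0.47 ± 0.18), each with an adjusted p of 0.249. The fitted change of Satb1 was -0.05 in B6 and -0.91 in NZB. That of Bach2 was 0.44 in B6 and -0.34 in NZB, so for Bach2 the value is no deeper fall. At rest, NZB minus B6 was 0.45 for Klf7, 0.65 for Satb1, 0.53 for Bach2, 0.54 for Klf3 and 0.41 for Klf13. After activation it was -0.58, -0.21, -0.26, -0.14 and -0.06 for the same genes in that order. When resting NZB libraries 2 and 6 and activated NZB library 6 were left out, Klf7 (-1.33, adjusted p = 0.0422) and Bach2 (-0.96, adjusted p = 0.0498) passed. Activated NZB library 6 held the highest activated NZB values of Klf7 (46.8 CPM) and Bach2 (73.6 CPM). Resting NZB libraries 2 and 6 held the lowest resting NZB values of Bach2 (50.8 and 57.4 CPM), while library 2 stood high in Klf7 (84.7 CPM). The share of all genes called in that fit is not given here, so nothing is read from the 2 calls. When resting NZB libraries 2, 5 and 6 were left out none of the 9 passed. All differences of responses use the same activation contrasts on which the genes were chosen. Tcf7 (-0.08 ± 0.22), Klf2 (0.18 ± 0.35), Lef1 (0.22 ± 0.22) and Foxp1 (-0.26 ± 0.18) had differences of responses with unadjusted p above 0.05.

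Around these factors, 88 genes of 6 related lists were followed, of which 77 were tested. After activation 17 were higher and 33 lower in B6, and 12 were higher and 41 lower in NZB, with median log2 differences of -0.30 and -0.64. Beside the 22.4% of all genes higher and 24.5% lower in B6 and the 25.2% and 28.4% in NZB, the higher counts were near or below the share over all genes and the lower counts above it. The lists were chosen with earlier results of these data known, so nothing is read from these counts. Over all tested genes 19.4% were lower and 18.1% higher in both haplotypes, the shares to set beside the counts of each list; no list was tested against them. The lists are described below with genes named by size of change among those that passed in both haplotypes.

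Of 8 homing and survival genes of naive cells that FOXO1 or KLF2 are known to drive or that mark this state, 3 were higher and 3 lower in both haplotypes. Values in parentheses and after "rose by" are log2 differences with their SE, first in B6 and then in NZB. S1pr1, the egress receptor under KLF2, fell 1.70-fold in B6 and 2.83-fold in NZB. Il7r, the interleukin-7 receptor chain under FOXO1, fell (-0.98 ± 0.24 and -1.21 ± 0.25). Bcl2, a survival factor, rose by 0.82 ± 0.23 and 1.27 ± 0.25, and S1pr4, another sphingosine phosphate receptor, rose by 0.93 ± 0.14 and 0.61 ± 0.14. The list thus did not move as a block. At rest, Ccr7, the lymph node homing receptor, was 1.06 ± 0.19 higher in NZB (adjusted p = 0.0222) and S1pr1 was 0.67 ± 0.17 higher (adjusted p = 0.0416).

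Of 11 FOXO targets of growth arrest and metabolism, 6 were lower and 0 higher in both haplotypes. By haplotype, 2 were higher in B6, among them Ccng2 (log2 difference 0.72 ± 0.26), and 0 in NZB. Irs2, an insulin receptor substrate, fell (log2 difference -2.44 ± 0.30 in B6 and -3.31 ± 0.31 in NZB), and the pseudokinase gene Trib1 fell (-3.03 ± 0.20 and -2.58 ± 0.21). Ccng2, a cyclin of arrested cells, was 1.04 ± 0.27 higher in resting NZB than resting B6 cells (adjusted p = 0.0389). Among 20 other quiescence genes, 18 of them tested, 9 were lower and 0 higher in both haplotypes. By haplotype, 1 was higher in B6 and 0 in NZB. Zfp36l2, an RNA decay factor, fell (-2.94 ± 0.28 and -3.45 ± 0.30), and the antiproliferative gene Tob1 fell (-3.01 ± 0.26 and -3.38 ± 0.27).

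Of 20 paralogs of the 10 factors, 13 were tested, and 8 were lower and 0 higher in both haplotypes. By haplotype, 0 were higher in B6 and 1 in NZB. Klf4 fell (log2 difference -7.57 ± 0.37 in B6 and -6.75 ± 0.36 in NZB), from a mean of 229 to 1.13 CPM and from 213 to 2.70 CPM. Klf1, the erythroid member of the family, fell (-4.41 ± 0.58 and -3.62 ± 0.71), and was 1.88 ± 0.51 lower in resting NZB than resting B6 cells (adjusted p = 0.0460). Both are also genes of other blood cells: KLF4 is a factor of monocytes and KLF1 of red cell precursors, and the erythroid marker sum was 191 to 6607 CPM in resting B6 libraries, 83.7 to 3459 CPM in resting NZB libraries and at most 161 CPM after activation. The part of those cells in the falls of Klf4 and Klf1 was not tested.

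Of 19 partners and regulators, 17 were tested, and 4 were higher and 5 lower in both haplotypes. Skp2, a ubiquitin ligase subunit that targets FOXO1 and the cell cycle inhibitor p27, rose by 1.03 ± 0.28 in B6 and 1.86 ± 0.33 in NZB, and the histone deacetylase gene Hdac1 rose by 0.80 ± 0.10 and 1.01 ± 0.10. Mafk, a small MAF partner of BACH2, fell (-2.54 ± 0.16 and -2.59 ± 0.16), and Sgk1, a kinase that phosphorylates FOXO factors, fell (-2.39 ± 0.17 and -2.53 ± 0.18). Tle4, a corepressor of TCF and LEF factors, was 0.74 ± 0.18 higher in resting NZB cells (adjusted p = 0.0327). Of 10 effector factors 3 were higher and 0 lower in both haplotypes. By haplotype, 5 were higher and 1 lower in B6, and 3 were higher and 1 lower in NZB. Tbx21, the T helper 1 factor, rose by 1.68 ± 0.19 and 1.59 ± 0.21, and Batf3 rose by 0.83 ± 0.30 and 0.92 ± 0.34. Rora was 1.27 ± 0.35 higher in resting NZB cells (adjusted p = 0.0486). In all 6 related genes passed between the haplotypes at rest, 5 higher and 1 lower in NZB, beside 1.9% of all genes higher and 0.861% lower. Resting NZB and B6 libraries overlapped in all 6. The lists were chosen with earlier results of these data known, so nothing is read from these counts either. The calls were not firm: over 11 alternatives Ccr7 passed in 9, Ccng2, Klf1 and Tle4 in 5 each, S1pr1 in 4 and Rora in 2. Ccr7 was the 1 gene that passed when scaled to the T cell markers. Without resting NZB library 5 the adjusted p was 0.0889 for Ccr7, 0.204 for S1pr1, 0.244 for Ccng2, 0.176 for Tle4, 0.301 for Rora and 0.200 for Klf1, so that none of the 6 passed. With edgeR 0 of the 77 passed after activation or in the difference of responses, where 2 and 16 had an unadjusted p under 0.05.

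**Figure D5:**
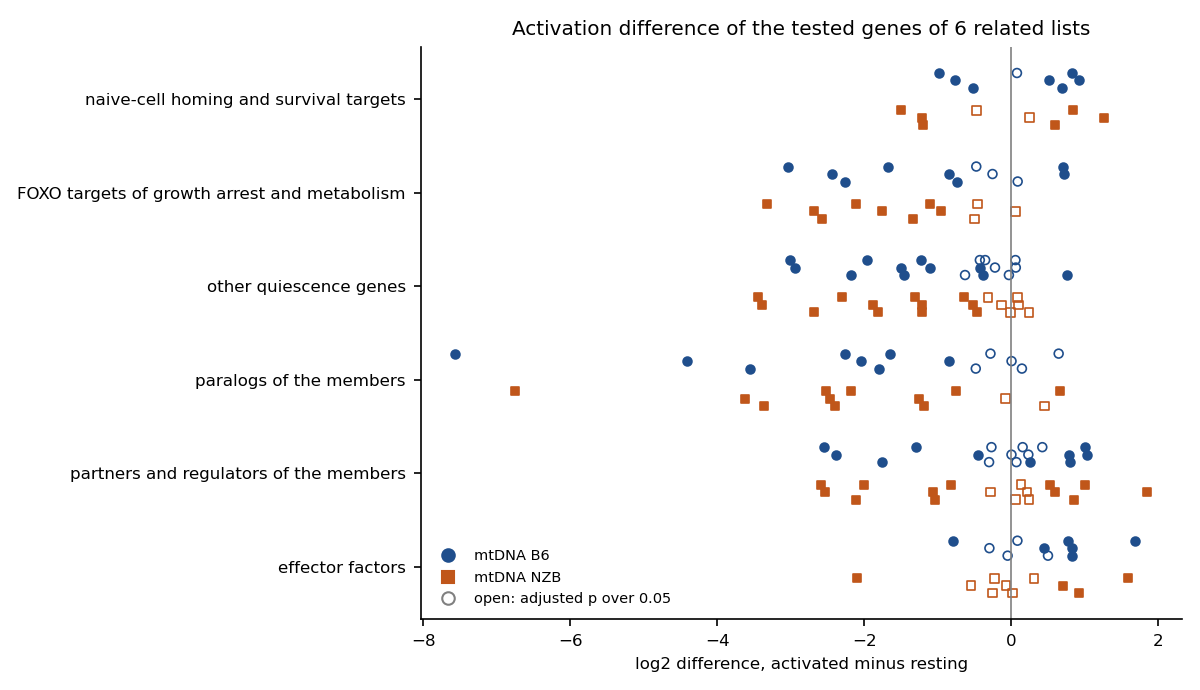
Log2 difference of activated minus resting cells for the 77 tested genes of 6 lists in mtDNA B6 (circles) and mtDNA NZB (squares), filled where edgeR's adjusted p was at most 0.05. The FOXO target, quiescence and paralog lists lie mostly below 0, with Klf4 at -7.57 and -6.75, and the homing list lies on both sides.

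Over the 24 libraries the profile most like that of Klf2, as the root-mean-square difference of standardized log2 CPM, was that of Zfp36 (0.176 SD), an RNA decay factor, followed by the splicing factor gene Srsf5 (0.197 SD) and Jun (0.200 SD), a subunit of AP-1. The median of 8169 genes was 1.43 SD. For Tcf7 the nearest were Dlgap4 (0.378 SD), Arhgap45 (0.392 SD) and Kif21b (0.400 SD), beside a median of 1.32 SD. Bach2 had no profile as close: Gpr18 (0.675 SD), Abhd17b (0.677 SD) and Snx5 (0.678 SD) came first, beside a median of 1.33 SD. The points share depth and state, so these are descriptions of likeness.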

How the data were processed

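The 24 libraries of splenic Tconv CD4+ cells were grouped from the labels by haplotype and state, 6 in each group. The authors trimmed reads with cutadapt, mapped them with STAR to the last 1000 bases of transcripts on GRCm39, counted them per gene with HTSeq, collapsed reads sharing gene and UMI, and corrected the counts for saturation. The deposited values are whole-number UMI counts, not scaled to depth. A second deposited table of larger counts was read as the counts before that step and served as an alternative. Reading 3′ ends makes the counts depend on the annotated ends, and strand in counting is not given in the sources used here. 1 column matched no sample and was not used.

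Counts were scaled by TMM, filtered with filterByExpr (minimum count 10) and fitted as 4 group means with edgeR 4.0.16 (quasi-likelihood test, R 4.3.3), with Benjamini-Hochberg adjustment over 10566 genes and a threshold of 0.05. The SE is the log2 difference divided by the square root of F. DESeq2 1.42.0 was an alternative. Others were the scaling, the filter, the libraries left out, a replicate block, and 3 sets of 8 libraries defined from the data by reads per UMI. From fewest to most reads per UMI, the sets held 0, 4 and 2 resting and 5, 1 and 0 activated B6 libraries. In NZB they held 1, 1 and 4 resting and 2, 2 and 2 activated libraries. In B6 the sets and activation can therefore not be fully told apart. Every replicate pair differed by more than sampling noise (lowest chi-square per degree of freedom 2.97). Scripts were tested on simulated data. The members and lists were chosen with earlier results of these data known. Named genes were the 10 factors, in each related list the 2 largest rises and 2 largest falls (mean of both haplotypes) among genes past the test in both haplotypes, related genes past the test between haplotypes, and the 3 most alike genes of Klf2, Tcf7 and Bach2 (Foxo1, also in the rule, did not pass the filter). Symbols, positions and transcript ends were read from GENCODE vM39.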

Additional observations from a re-analysis of the deposited data

How the results depend on the processing

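The count of genes lower or higher on activation was within 1.5 times its value under the other settings run, except under a required log2 difference of at least 1, where 3 of the 9 factors were left in B6 (6 without it), 3 in NZB (8 without it) and 26 related genes in B6 (50 without it). Leaving out 1 library at a time gave 4 to 7 factors in B6, 8 to 9 in NZB (9 without resting NZB 6), 45 to 54 related genes in B6 and 52 to 56 in NZB. The share of all genes called under each setting, the replicate blocks included, is not given in this section. Whether the factors moved more than all genes can therefore not be told from these counts, and nothing is read from them. In B6, Bach2 and Tcf7 each lost their call without any of 6 libraries: Bach2 without resting 1, 4 or 5 or activated 1, 2 or 3, and Tcf7 without resting 2, 3, 4 or 6 or activated 4 or 5. Tcf7 in B6 also lost it with no filter and T cell scaling, Tcf7 in NZB with the 2 groups alone, and Bach2 in B6 with the sets as a term. At rest the 1 factor past the threshold became 0 with DESeq2, RLE size factors, no filter, a log2 difference of at least 1, the second table, the 2 groups alone, the library sets as a term, T cell scaling and the replicate block by title number, and 0 to 2 without 1 library; Satb1 lost its call in 15 of 24 such fits (any B6 library, resting NZB 2 or 5, activated NZB 5) and its adjusted p ranged from 0.0151 to 0.252. Without resting NZB 1 or 6 there were 2. The difference of responses went from 0 to 2 factors without resting NZB 2 and 6 and activated NZB 6, and no removal of 1 library changed the 0 there or after activation.

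Signs turned in these cases. Satb1 on activation in B6 was 0.0129 with the second table, 0.00489 without resting NZB 2, 5 and 6 and 0.15 under T cell scaling, and ranged from -0.11 to 0.0313 without 1 library. Klf2 at rest was -0.0411 with the title block and -0.11 to 0.23 without 1 library. Tcf7 at rest was -0.0153 with no filter, -0.0121 with the second table, -0.00462 with the sets as a term and -0.0475 to 0.12 without 1 library. After activation Foxp1 was -0.0182 under T cell scaling and -0.000939 to 0.16 without 1 library, Tcf7 was 0.0651 with the sets as a term, and Klf13 ranged from -0.10 to 0.0194 without 1 library. In the difference of responses Klf2 was -0.11 and -0.34 with the 2 choices of 21 libraries and -0.00514 to 0.33 without 1 library, and Tcf7 was 0.0190 with the description block and 0.0697 with the sets as a term. The cause was not tested.

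Whether equal numbers mark cells of 1 mouse is not stated, although the study divided isolated cells into resting and activated ones. The libraries did not all deviate together by number: by the number in the description 3 of 9 pairs had correlated deviations over 0.1 (-0.17 to 0.25), and by title 4 of 12 (-0.19 to 0.25). A replicate block by description number left 5 factors called on activation in B6 and 7 in NZB. Tcf7 was lost in both (log2 differences -0.38 and -0.36). This block cannot estimate a difference between haplotypes, whose numbers are separate. A block by title number left 6 and 8. Of the pairs, 2 of 9 and 3 of 12 correlated best with their own number.

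Low counts limit Foxo1 in all libraries, for a reason that was not tested. Depth limits the low genes in resting NZB library 2, where Bach2 had 3 counts, Klf7 5 and Klf3 6. Alternatives that leave out resting NZB 2, 5 and 6 or scale to T cell markers, and the refits of the related genes at rest, were chosen after seeing the data.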
